A study of Mus musculus with 2 samples.

Results

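The genes described here are 31 mouse genes of granulocyte granules and of phagocytes, the white cells that engulf microbes and dead cells. They were taken as a list of symbols, chosen with earlier results of these arrays known, and they stand among 21947 named genes. On the array, a probeset is a set of short probes for a small stretch of a gene, and every probeset that a probe annotation names with one of these symbols alone, or with an unambiguous older synonym, was used. This gave 272 probesets for 30 genes. Adgre1 was found under its older symbol Emr1, and Elane had no probeset of its own.

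Blood cells of the granulocyte and macrophage lines are told apart by a small set of proteins. Growth factor receptors such as those for CSF1, CSF3 and CSF2 carry the signals for survival and growth, and transcription factors of the C/EBP family and IRF8 set the balance between granulocytes and monocytes. Granulocyte precursors fill their primary granules with myeloperoxidase and serine proteases, whereas macrophages carry Fc receptors, lysosomal proteases and complement C1q. In the mouse embryo the earliest myeloid cells arise while endothelium of the hemogenic kind gives rise to blood.

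The cells came from Bry-GFP mouse embryonic stem cells, a line that reports the mesoderm gene Brachyury with GFP. FLK1-positive cells, which are mesoderm precursors of vessels and blood, were taken from embryoid bodies on day 3 and cultured either with the LSD1 inhibitor known as compound B, at 300 nM, or with the solvent DMSO. LSD1 is a histone demethylase. On culture day 2 cells positive for CD41, an integrin of early blood cells, were sorted by flow cytometry from both cultures, and their total RNA was measured on Affymetrix arrays. Hemogenic endothelial cells is the name they have in the labels. Each condition had 1 array, so no test and no error between samples can be given. Precision is limited by the number of arrays. All differences are in log2, LSD1 inhibitor minus DMSO, and describe those 2 arrays. The SD given for a gene is taken over the differences of its probesets within these arrays, and it says nothing about replicates. In such a bulk measurement, fewer cells of a type and less RNA per cell cannot be told apart.

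The labelled cell type was checked against endothelial and CD41 markers. All 6 endothelial markers, Cdh5, Kdr, Tek, Pecam1, Esam and Emcn, were measured, with gene levels between 4.45 and 9.84 in the inhibitor array, against 3.62 and 7.89 in the DMSO array, and their differences ran from 0.79 to 2.11. Itga2b, the gene of CD41, had a level of 5.996 in the inhibitor array, against 6.19 in the DMSO array. This check does not show that other cell types were absent. The 6 measured erythroid markers had levels between 4.06 and 10.22 in the inhibitor array, against 5.47 and 12.46 in the DMSO array. The highest in both arrays was the globin gene Hba-x. A size rule was set at 2-fold, a log2 difference of 1, with 75% or more of a gene's bright probesets going the same way. In the whole table it was met by 259 of 15087 measured genes upward and by 85 downward. A gene counted as measured with at least 4 bright probesets, and a probeset was bright if its higher value reached 3.17, the table's median value. A probeset that reached it in 1 array alone is therefore always higher in that array. The level of a gene is the median of its bright probesets in an array. Its difference is the median of the differences probeset by probeset, which can depart from the gap between the levels, even in sign, where probesets disagree.

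Of the 31 genes, 23 were measured. A further 7 had 1 to 3 bright probesets, and Elane had none. The list was dim: 66.2% of its probesets were bright, against 77.2% of all probesets named with 1 gene. Over all their probesets, bright or not, 17 of the 30 genes had a median value at or above the table's median in both arrays, and 5 lay below it in both. A further 5 reached it in the inhibitor array alone and 3 in the DMSO array alone. These counts by gene are given without a share over all named genes. The table holds no detection call, so it does not say which dim probesets are above background.

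**Figure D1:**
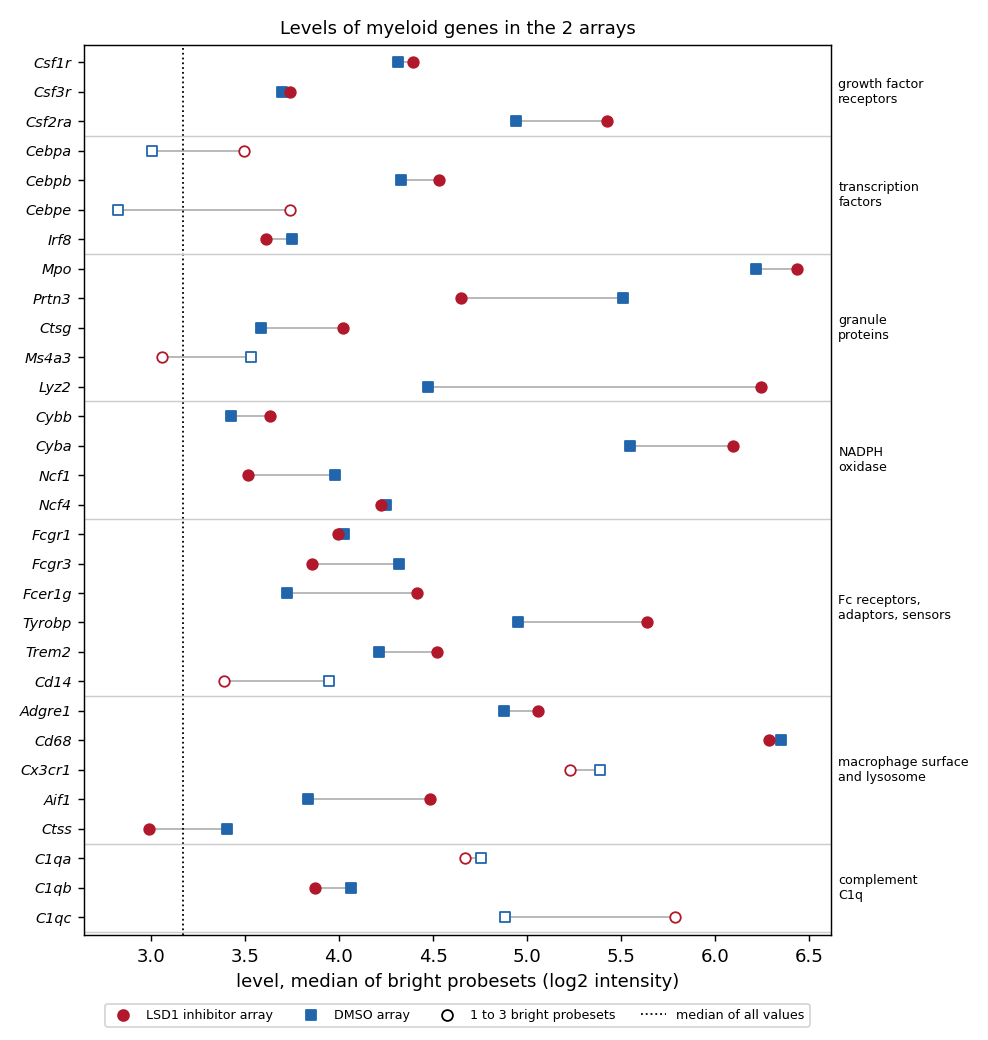
Level of each of the 30 genes in the LSD1 inhibitor array (red circles) and the DMSO array (blue squares), as the median of the gene's bright probesets in log2 intensity, grouped by role. Open symbols mark genes with 1 to 3 bright probesets, and the dotted line is the median of all values, 3.17. The gap between the symbols is widest for Lyz2, at 6.24 in the inhibitor array and 4.48 in the DMSO array. Levels of different genes come from different probes and are not comparable with each other.

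Lyz2, which encodes the lysozyme of granulocytes and macrophages that cleaves bacterial cell walls, was the 1 measured gene of the 23 past the size rule, and it was higher in the inhibitor array. None of the 23 was lower past it. Over all measured genes the rule called 1.72% higher and 0.563% lower, and over the 10790 with 4 to 15 bright probesets, as the 23 have, 1.84% higher and 0.593% lower, so a count of 1 in 23 lies near this background. The median difference of the 23 genes was 0.12, against 0.06 for all measured genes, and 14 of the 23 differences were above 0, against 59.0% of all genes. For 19 of the 23 the difference was smaller than its SD over probesets, a count given without a share over all measured genes. It includes genes with small differences as well as genes whose probesets disagreed. The median SD of the 23 was 0.76, against 0.60 for all measured genes.

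The 5 Lyz2 probesets were higher in the inhibitor array without exception. Their values were 5.88, 6.82, 8.67, 5.79 and 6.24 in the inhibitor array, against 3.80, 5.06, 6.79, 4.10 and 4.48 in the DMSO array. The probeset differences lay between 1.70 and 2.09, so that all 5 were past 2-fold, and the gene difference was 1.77 (SD 0.15 over 5 probesets), which is 3.41-fold. No other measured gene of the list had every bright probeset in the same direction.

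The mouse has a close copy of this gene, Lyz1, best known from the Paneth cells of the gut. The 2 genes are neighbours on chromosome 10 in the RefSeq gene table, and 14 probesets are named with both symbols. These shared probesets were left out of the values above. Their median was 7.09 in the inhibitor array and 5.51 in the DMSO array, and 13 of the 14 were higher in the inhibitor array, with a median difference of 1.51 (SD 1.11). Of the 14, 11 differed by 0.98 to 3.15 and the other 3 by less. Among those, the probeset brightest in the DMSO array had 7.94 in the inhibitor array, against 8.83 in the DMSO array. The others had 8.81 and 4.35 in the inhibitor array, against 8.75 and 4.03 in the DMSO array. The probesets named Lyz1 alone were also higher in 7 of 8, and over the 7 bright ones the Lyz1 difference was 1.24 (SD 1.02, 6 of 7 higher). With such similar copies, the probes of either gene may bind transcripts of the other, and how much of the Lyz1 signal comes from Lyz2 was not tested.

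**Figure D2:**
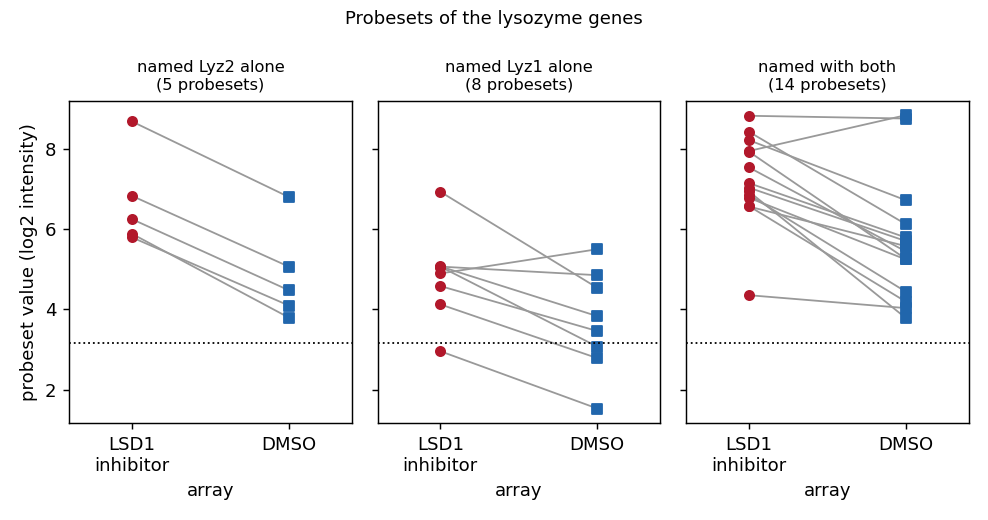
Every probeset of the lysozyme genes in the LSD1 inhibitor array (red circles) and the DMSO array (blue squares), in log2 intensity, with a line for each probeset and the table's median value of 3.17 dotted. The panels show 5 probesets named Lyz2 alone, 8 named Lyz1 alone and 14 named with both. All 5 Lyz2 probesets, 7 of the 8 Lyz1 probesets and 13 of the 14 shared probesets are higher in the inhibitor array.

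The promoter windows of these genes are shown because Lyz2 and Lyz1 were higher together and are copies of each other, with Mpo as a granule gene of the same list that stayed below 2-fold. Each window is the RefSeq sequence of assembly GRCm38.p6 from 250 bases before to 50 bases after the gene's start, on the gene's strand. It was searched on both strands for AAATCA, the core bound by GFI1 and GFI1B, for GAGGAA, the core bound by PU.1, and for the C/EBP pattern TTNNGNAA, none of which overlapped another in the windows printed. Capitals mark the matches. The Lyz2 window is chr10:117282223-117282522 on the minus strand, the Lyz1 window is chr10:117292819-117293118 on the minus strand, and the Mpo window is chr11:87793534-87793833 on the plus strand.
Lyz2: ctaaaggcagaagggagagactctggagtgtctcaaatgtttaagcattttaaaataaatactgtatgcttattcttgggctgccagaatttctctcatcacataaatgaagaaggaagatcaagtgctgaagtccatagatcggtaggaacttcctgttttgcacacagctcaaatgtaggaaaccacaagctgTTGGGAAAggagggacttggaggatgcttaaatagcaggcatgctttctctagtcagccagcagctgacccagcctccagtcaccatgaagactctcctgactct
Lyz1: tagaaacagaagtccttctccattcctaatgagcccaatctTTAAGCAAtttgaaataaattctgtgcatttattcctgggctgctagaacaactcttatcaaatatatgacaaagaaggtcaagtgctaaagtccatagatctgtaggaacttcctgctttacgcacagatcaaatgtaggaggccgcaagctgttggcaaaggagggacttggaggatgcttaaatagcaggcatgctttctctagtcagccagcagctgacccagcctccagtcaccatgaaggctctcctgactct
Mpo: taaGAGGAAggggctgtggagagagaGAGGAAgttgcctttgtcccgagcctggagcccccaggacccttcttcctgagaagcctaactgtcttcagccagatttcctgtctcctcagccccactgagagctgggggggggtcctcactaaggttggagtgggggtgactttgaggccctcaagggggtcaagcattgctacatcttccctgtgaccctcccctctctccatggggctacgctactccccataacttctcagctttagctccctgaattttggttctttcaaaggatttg
The Lyz2 and Lyz1 windows share 249 of 298 aligned bases (83.6%). Each holds 1 match to the C/EBP pattern, at a different place, from base -55 to -48 before the start in Lyz2 and from -209 to -202 in Lyz1. Mpo holds 2 matches to the PU.1 core. Windows were given for 24 of the 31 genes, and 16 of them (66.7%) held the PU.1 core, against 28.3% of all 32851 windows. The C/EBP pattern was found in 7 of the 24 (29.2%), against 40.7% of all windows. The GFI1 core was found in 1 of the 24, Irf8, against 13.997% of all windows. A match describes letters and not a bound site.

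Granule genes other than Lyz2 did not pass the size rule. Mpo, which encodes myeloperoxidase, the granule enzyme that makes hypochlorous acid, had a level of 6.43 in the inhibitor array and 6.21 in the DMSO array. All 13 of its probesets were bright, 10 of them were higher in the inhibitor array, and the difference was 0.32 (SD 0.41), or 1.25-fold. With this many bright probesets it is the best covered granule gene of the list.
Ctsg, the granule serine protease cathepsin G, had the difference nearest to the rule. Its 4 bright probesets had 3.53, 4.51, 3.22 and 4.60 in the inhibitor array, against 3.91, 3.57, 2.34 and 3.60 in the DMSO array. Of these, 3 were higher and 1 was lower, and the difference was 0.91 (SD 0.66), or 1.87-fold. The other 3 of its 7 probesets were dim in both arrays, and with them the difference was 0.60.
Prtn3, the related protease proteinase 3, went the other way over its bright probesets. These 5 had 5.22, 5.32, 1.69, 4.65 and 3.96 in the inhibitor array, against 5.51, 5.52, 3.35, 5.87 and 2.77 in the DMSO array. Of them 4 were lower and 1 was higher, and the difference was -0.29 (SD 1.10). Over all 7 probesets 3 were higher and 4 lower, with a difference of -0.20. The median value of those 7 was higher in the inhibitor array, at 3.96 against 3.35 in the DMSO array. Ctsg and Prtn3, which are stored in the same granules, thus had differences of opposite sign, each with at least 1 probeset against it. Ms4a3, a membrane protein of granulocyte and monocyte precursors, had 2 bright probesets with differences of -2.30 and 1.36 and was not measured.

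Elane, neutrophil elastase, could not be described. The annotation holds 5 probesets under the symbol Ela2, which is an older synonym of both Elane and the pancreatic elastase gene Cela2a. They had 1.64, 3.11, 3.53, 3.56 and 3.38 in the inhibitor array, against 1.399, 5.14, 4.20, 3.53 and 3.17 in the DMSO array. The 2 probesets brightest in the DMSO array were lower in the inhibitor array, by -2.04 and -0.67, and the other 3 were higher by at most 0.24.

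No growth factor receptor of the list passed the size rule. Csf1r, the receptor for CSF1 and IL-34 on macrophages, had a level of 4.40 in the inhibitor array and 4.32 in the DMSO array, and its 15 bright probesets split into 8 higher and 7 lower (difference 0.05, SD 0.76). Csf3r, the granulocyte CSF receptor, had 3.74 in the inhibitor array and 3.70 in the DMSO array, with the same split of 8 and 7 (difference 0.14, SD 0.89). These are the 2 genes of the list with the most bright probesets.
Csf2ra, the ligand-binding chain of the receptor for CSF2, was at 5.43 in the inhibitor array and 4.94 in the DMSO array. It was higher in 6 of 7 probesets, and the difference over all 7 was 0.46 (SD 0.68), or 1.38-fold. Only 1 probeset reached 2-fold. Csf2rb, its signalling partner chain, differed by 0.13 with 12 of 22 bright probesets higher, and shares 10 further probesets with its copy Csf2rb2, which were left out.

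Among the transcription factors, Cebpa and Cebpe had few probesets, all of them higher, and Cebpb and Irf8 were mixed. Cebpa, needed to form granulocyte and monocyte precursors, had 3 probesets with 3.50, 3.38 and 4.78 in the inhibitor array, against 3.01, 2.40 and 3.92 in the DMSO array (differences 0.49, 0.99 and 0.86). Cebpe, which drives late granule formation, had 2 bright probesets with 4.02 and 3.45 in the inhibitor array, against 3.14 and 2.52 in the DMSO array, and its dim probeset differed by 0.20. Both genes fell short of the 4 bright probesets required, and none of their probesets reached 2-fold. The bright Cebpe probesets, and the Cebpa probesets with 3.01 and 2.40 in the DMSO array, reached the bright limit of 3.17 in the inhibitor array alone. A probeset that is bright in this way is higher by definition, so its direction adds little.
Cebpb, a C/EBP factor of macrophages and of emergency granulocyte production, had differences from -1.43 to 1.48 over 6 probesets, 2 higher and 4 lower, with a median of -0.49 (SD 1.22). The mean of these differences was -0.09, and the level of Cebpb was 4.53 in the inhibitor array and 4.33 in the DMSO array. Irf8, which favours monocytes over granulocytes, had 2 higher and 2 lower bright probesets and differed by -0.14 (SD 0.35).

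**Figure D3:**
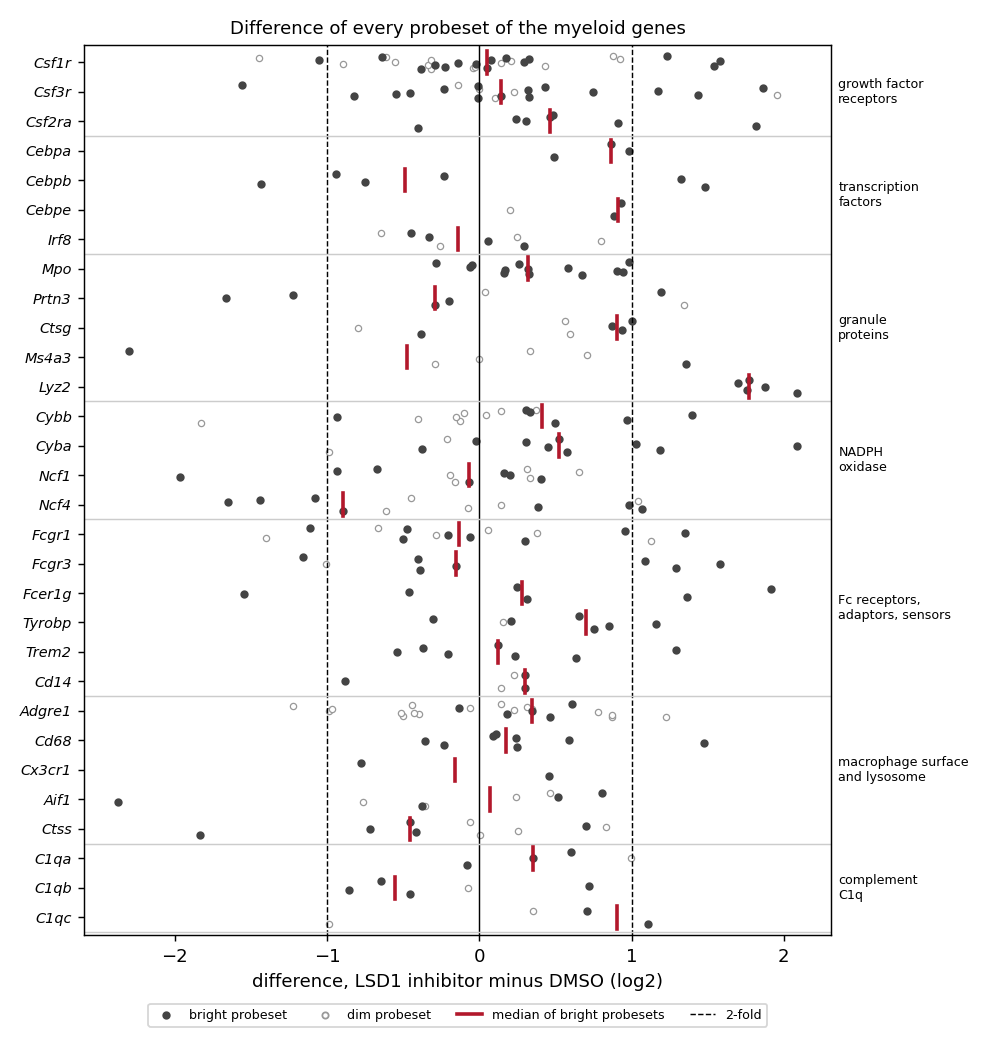
Difference of every probeset of the 30 genes, LSD1 inhibitor minus DMSO in log2, with bright probesets filled, dim ones open, the median of the bright ones as a red bar and 2-fold as dashed lines. The 5 Lyz2 probesets lie together between 1.70 and 2.09, whereas the bright probesets of Cebpb, Fcgr3, Fcer1g and Ncf4 spread over both sides of 0.

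The NADPH oxidase makes superoxide in phagocytes from a membrane part, encoded by Cybb and Cyba, and cytosolic subunits that include those of Ncf1 and Ncf4. Cyba had a level of 6.09 in the inhibitor array and 5.55 in the DMSO array. Of its 9 bright probesets 7 were higher, 3 of them by more than 2-fold, and the difference was 0.52 (SD 0.72), or 1.44-fold. Cybb, at 3.63 in the inhibitor array and 3.43 in the DMSO array, was higher in 5 of 6 bright probesets. Its difference over those 6 was 0.41 (SD 0.79), but 8 of its 14 probesets were dim and over all 14 the difference was 0.10.
Of the cytosolic subunits, Ncf1 was at 3.51 in the inhibitor array and 3.98 in the DMSO array, with 3 of 7 bright probesets higher and a difference of -0.06 (SD 0.84). Ncf4 had the lowest difference of the list, -0.90 (SD 1.16), from bright probesets with 3.36, 4.54, 4.34, 4.56, 4.22, 3.39 and 3.50 in the inhibitor array, against 4.25, 3.47, 3.96, 3.58, 5.88, 4.83 and 4.58 in the DMSO array. Of these 7, 4 were lower and 3 were higher, and over all 12 probesets the difference was -0.26. Its direction also depends on which probesets are taken: with every other bright probeset in the order of their identifiers, the even-ranked ones, it was 0.98. The GTPases Rac2 and Rac1, which take part in the active oxidase and are not among the 31 genes, differed by 0.40 (7 of 9 bright probesets higher) and 0.10 (11 of 12 higher).

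Fc receptors bind antibody, and their adaptors carry the activating signal into the cell. Tyrobp, an adaptor of many activating receptors of myeloid cells, had the third largest upward difference of the measured genes. Its 6 bright probesets had 4.76, 5.14, 5.75, 5.52, 6.11 and 6.17 in the inhibitor array, against 4.005, 4.28, 4.59, 5.30, 6.41 and 5.51 in the DMSO array, so 5 were higher and the one brightest in the DMSO array was lower, and the difference was 0.70 (SD 0.52), or 1.63-fold. Trem2, a lipid receptor that signals through Tyrobp, differed by 0.12 (SD 0.64, 4 of 7 higher).
Fcer1g, the adaptor chain of several Fc receptors, differed by 0.28 with a wide spread (SD 1.24, 4 of 6 higher). Fcgr1, the high-affinity IgG receptor, was at 3.997 in the inhibitor array and 4.03 in the DMSO array and differed by -0.13 (SD 0.81, 3 of 8 higher). Fcgr3, an activating IgG receptor, differed by -0.16 (SD 1.04, 3 of 7 higher), and the 2 bright ones of another 4 probesets that it shares with Fcgr2b were both higher, by a median of 0.23. Fcgr2b, the inhibitory IgG receptor, was higher in 7 of 7 bright probesets by 0.75. Cd14, a co-receptor for bacterial lipopolysaccharide, had 3 bright probesets with differences of 0.30, 0.30 and -0.88 and was not measured.

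None of the 4 measured macrophage surface and lysosome genes of the list passed the size rule. Cd68, a lysosomal glycoprotein, was bright in 8 of 8 probesets, with a level of 6.29 in the inhibitor array and 6.35 in the DMSO array. Of the 8, 6 were higher, and the difference over all 8 was 0.17 (SD 0.57). Adgre1, a surface receptor used as a marker of mature mouse macrophages, had 17 dim probesets among 22, and the 5 bright ones differed by 0.35 (SD 0.29, 4 of 5 higher), against 0.16 over all 22. Aif1, an actin-binding protein of macrophages, differed by 0.07 (SD 1.43, 2 of 4 higher).
Ctss, a lysosomal protease of antigen-presenting cells, was at 2.99 in the inhibitor array and 3.40 in the DMSO array and differed by -0.45 (SD 0.90, 4 of 5 lower), but by -0.06 over all 9 probesets. Cx3cr1, the fractalkine receptor, had 2 probesets, with 4.92 and 5.54 in the inhibitor array, against 5.69 and 5.08 in the DMSO array.

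C1q, which starts the classical complement cascade, is built from 3 chains whose genes C1qa, C1qb and C1qc are neighbours on chromosome 4 in the same table. Of these C1qb was measured, at 3.87 in the inhibitor array and 4.06 in the DMSO array, with 3 of 4 bright probesets lower and a difference of -0.55 (SD 0.71), which was 0.13 with the odd-ranked probesets alone. The bright C1qc probesets had 4.59 and 6.99 in the inhibitor array, against 3.48 and 6.28 in the DMSO array, so both were higher. The bright C1qa probesets had differences of -0.08, 0.35 and 0.60. With 3 and 2 bright probesets, C1qa and C1qc were not measured.

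Sorted by role, the genes of granulocytes, of macrophages and of both kinds of cell gave small medians. The 4 measured granulocyte genes, Csf3r, Mpo, Prtn3 and Ctsg, had a median of 0.23, the 9 measured macrophage genes a median of 0.05, and the 10 measured genes of both a median of 0.35, Lyz2 among them. At a weaker limit of 0.5 in log2, 4 of the 23 genes were higher, namely Lyz2, Ctsg, Tyrobp and Cyba, against 9.37% of all measured genes, and 2 were lower, Ncf4 and C1qb, against 4.89%. Among the measured genes with 4 to 15 bright probesets those shares were 10.5% and 5.78%. By direction alone, 9 of the 23 had at least 75% of their bright probesets higher, against 23.0% of all measured genes, and these were Csf2ra, Mpo, Ctsg, Lyz2, Cybb, Cyba, Tyrobp, Adgre1 and Cd68. Another 3, Prtn3, Ctss and C1qb, had at least 75% lower, against 10.8%. The 23 genes had a median of 6 bright probesets, against 10 for all measured genes. These 2 shares by direction were not matched for that number, so they compare unlike sets of genes.

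A wider list of 73 other myeloid genes gave 51 measured ones, with a median difference of 0.10. The size rule was passed upward by 3 of the 51 and downward by none, against 1.72% and 0.563% of all measured genes. The 3 were Gfi1, a repressor that recruits LSD1, at 2.43 (16 of 16 bright probesets higher), Mrc1, the mannose receptor of macrophages and some endothelium, at 1.49 (SD 0.97, 26 of 26 higher), and Lgmn, a lysosomal asparaginyl protease, at 1.14 (SD 0.62, 14 of 14 higher). Mrc1 had a level of 4.999 in the inhibitor array and 3.19 in the DMSO array, and Lgmn 7.40 in the inhibitor array and 6.22 in the DMSO array.
The next 6 by size did not pass it. They were Ly96, a partner of the lipopolysaccharide receptor, at 0.90 (6 of 6 higher), Fcgr2b as given above, Nr4a1, a nuclear receptor of monocytes, at 0.75, the lysosomal protease gene Ctsl at 0.73 (9 of 9 higher), Mertk, a receptor for the uptake of dead cells, at -0.70 (3 of 11 higher), and the scavenger receptor gene Msr1 at 0.68. The 10 measured other granule genes ran from -0.39 to 0.26.

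**Figure D4:**
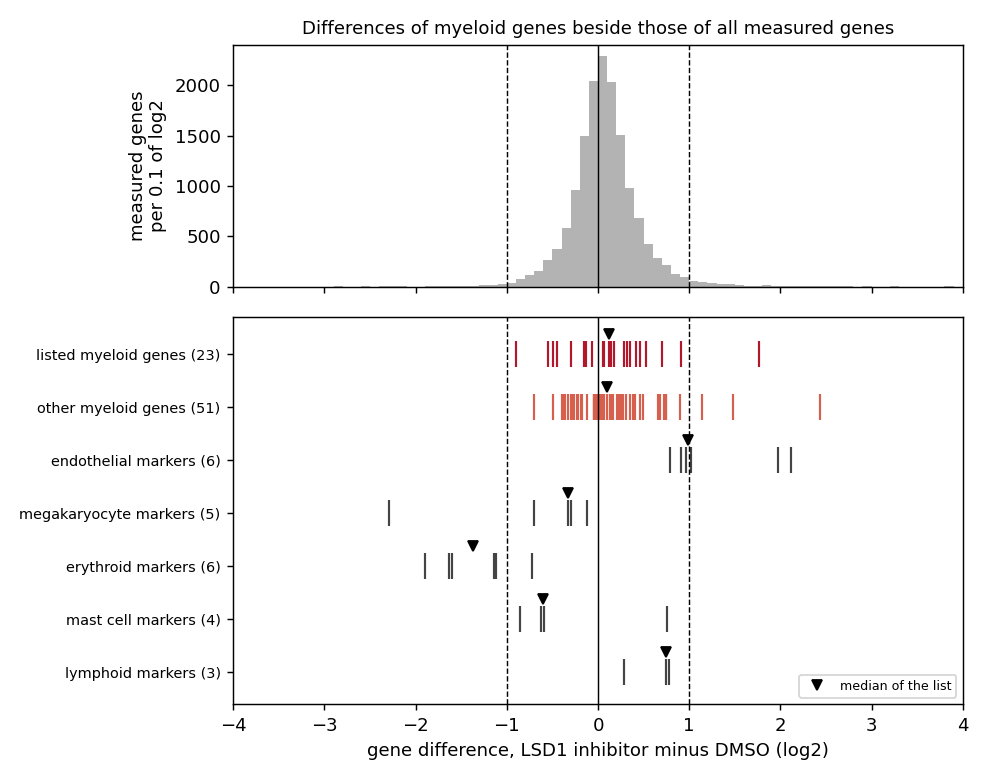
Gene differences, LSD1 inhibitor minus DMSO in log2. The upper panel counts all 15087 measured genes per 0.1 of log2, and the lower panel marks each measured gene of a list, with the list's size in brackets, its median as a triangle and 2-fold as dashed lines. The 23 myeloid genes centre on 0.12 and the 51 other myeloid genes on 0.10, whereas the 6 endothelial markers all lie above 0 and the 6 erythroid markers all below.

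Marker genes of endothelial, erythroid, megakaryocyte, mast cell and lymphoid types also differed between the same 2 arrays. A bulk measurement does not show which of these cell types the sorted cells held. All 6 measured endothelial markers were above 0, 2 of them past the size rule (Cdh5 and Esam), with a median of 0.99 and a summed level of 10.59 in the inhibitor array, against 9.03 in the DMSO array, in log2. All 6 measured erythroid markers were below 0, 5 past the rule, with a median of -1.37 and a summed level of 11.03 in the inhibitor array, against 13.07 in the DMSO array. Megakaryocyte markers had a median of -0.33 over 5 genes, with Pf4 past the rule, and a summed level of 8.13 in the inhibitor array, against 8.64 in the DMSO array. Among these 5 is Itga2b (-0.12), the gene of CD41, on which the cells of both cultures were sorted.
Mast cell markers had a median of -0.61 over 4 genes (summed level 5.75 in the inhibitor array and 5.98 in the DMSO array), and lymphoid markers one of 0.74 over 3 genes (5.51 in the inhibitor array and 4.91 in the DMSO array), none past the rule. Over all probesets, bright or not, both lists differed less. The lymphoid differences were then 0.10 for Cd3e, 0.12 for Il7r and -0.06 for Dntt. Those of the mast cell markers were -0.10 for Cpa3, -0.32 for Mcpt8, -0.42 for Tpsb2 and 0.38 for Hdc. For the 23 measured myeloid genes the summed level was 9.47 in the inhibitor array and 9.22 in the DMSO array. By role it was 7.14 and 7.18 in these arrays for the granulocyte genes, and 7.84 and 7.79 for the macrophage genes. For the genes of both kinds of cell, Lyz2 among them, it was 8.40 in the inhibitor array and 7.84 in the DMSO array. Sums of different lists come from different probes and are not comparable with each other. No marker analysed here was at 0. The part of these shifts in the differences of Lyz2 and the other myeloid genes was not tested.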

How the data were processed

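The deposited table holds 1 value per probeset for 2 arrays, read here as log2 intensity from its range of 0.157 to 13.5. How the authors summarised and normalized the arrays, and on which genome build, is not given in the sources used here. Per the labels' protocols, amplified cRNA was turned into single-stranded cDNA, fragmented and labelled with biotin. Groups came from the sample titles. The table stops at 1048575 probesets, so genes may be covered in part.

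No scaling was added to the deposited log2 values. A platform annotation named 275842 probesets. Those with 1 symbol (270105) were used, and older symbols were updated through RefSeq (GRCm38.p6), except 53 that are synonyms of several genes. A gene's level was the median of its bright probesets in an array, and its difference the median of their differences. The gap between the levels can therefore differ from it. Folds are 2 raised to the difference. A summed level is log2 of the sum of linear gene levels.

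With 1 array per group there was no test. All 31 genes are named. Of the other myeloid genes, those past the rule and the next 6 by size are named. The genes and lists were chosen with earlier results of these data known. Python 3.11.15, pandas 2.3.3, numpy 2.4.6 and statsmodels 0.14.6 were used. Alternatives varied the scaling, the filter on dim probesets, the summary, the number of probesets and the threshold.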

Additional observations from a re-analysis of the deposited data

How the results depend on the processing

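Lyz2 remained the 1 gene past the size rule, and no gene was lower past it, in each of the 17 alternatives except a pair: with at least 8 bright probesets required, Lyz2 was no longer measured and 0 of 6 genes passed, and with 1.5-fold in place of 2-fold, Ctsg and Tyrobp joined it to give 3. The difference of Lyz2 lay between 1.69 and 1.88 in the 13 alternatives that measured it and could move it. The median difference of the list stayed within 0.1 of 0.12 except with bright set at the 75th percentile of all values, which left 8 genes and gave 0.35. Of the 23 genes, 12 kept their sign in every alternative that measured them and 11 turned in at least 1, among them Ncf4 (0.98 with even-ranked probesets alone), Fcgr3 (1.29 with the same, and 0.10 with shared probesets kept), Ctss (0.14 with even-ranked probesets) and C1qb (0.13 with odd-ranked probesets alone). The cause was not tested. Taking the Ela2 probesets as Elane, an alternative chosen after seeing the data, gave a median of 0.10 over 24 genes. The other myeloid genes had 3 higher in the main setting, and between 1 (3-fold) and 8 (1.5-fold) over the alternatives, with 2 lower where 1 bright probeset was enough and none lower otherwise. No paired analysis was possible because each condition had 1 array. Signal over background limits the dim genes, for which no detection call is given.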
